A study of Glycine max with 18 samples.

Results

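The genes described here were those with the largest rise in germinating control axes of soybean (Glycine max) that also reached overlapping levels with paclobutrazol. Paclobutrazol (PBZ), a triazole compound, lowers a plant's production of gibberellins, hormones that promote germination and elongation. Members were chosen by measured values: a mean of at least 5 RPKM in the 36 h controls, every 36 h control library above every 12 h control library, and overlapping ranges of the 36 h PBZ and 36 h control libraries. RPKM is a read count scaled by transcript length and by the mapped reads of the library. Of 56044 genes in the table, 7174 met these conditions, and the 200 with the largest log2 ratio of the 36 h to the 12 h control means, with 0.1 RPKM added to each, were taken.

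The 18 libraries came from embryonic axes of the cultivar BRS 284, separated from the cotyledons and profiled by polyA RNA sequencing. Seeds imbibed either 200 µM PBZ in water or water alone, and axes were sampled at 3 times, counted in hours after imbibition (HAI). The groups were PBZ at 12, 24 and 36 HAI and control at 12, 24 and 36 HAI, with 3 replicates each, every one from the same wild-type cultivar. The labels do not say whether replicates came from separate sowings, so the p-values measure the spread between these libraries only.

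During imbibition the dry embryo restarts metabolism from stored transcripts, then begins new transcription, loosens its cell walls and elongates until the radicle breaks the seed coat. Gibberellins promote this sequence in many species, partly through removal of DELLA repressors and induction of hydrolases and wall-remodelling proteins. After emergence the axis becomes a seedling with a growing root and hypocotyl, a cuticle, specialised metabolism and, in the light, photosynthesis.

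Library depth cannot be read directly from RPKM. From the commonest ratio of values under 0.1 RPKM, the libraries had an estimated 0.812 to 2.87 times the depth of control replicate 1 at 24 HAI. A few annotated genes were looked up beside the tissue label, which they cannot settle. For 13 seed storage and late embryogenesis genes, genes with a lipid-transfer annotation left out, median levels at 12, 24 and 36 HAI were taken. These were 122, 9.30 and 1.41 RPKM with PBZ and 81.7, 17.6 and 3.18 RPKM in controls. The medians of 2 extensin genes were 6.45, 4.14 and 22.3 RPKM with PBZ and 3.07, 6.84 and 20.8 RPKM in controls. A tonoplast aquaporin had group means of 63.8 to 300.5 RPKM. Nuclear copies of organellar genes, a list of 63 genes that the study drew from these libraries, took 4.43% to 7.37% of the summed RPKM in the PBZ libraries of 24 HAI and 0.248% to 0.308% in the control libraries of 24 HAI. The same copies took 5.03% in control replicate 3 of 36 HAI and 0.187% to 0.415% in every other library of 36 HAI. At 12 HAI they took 7.42%, 6.43% and 3.85% with PBZ and 11.4%, 0.732% and 7.58% in controls. A high share was thus not confined to PBZ libraries. None of the 200 members is on that list (0 of 63). In bulk axes, fewer cells that express a gene and less RNA per cell cannot be told apart.

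Most members were close to silent at 12 HAI and abundant at 36 HAI, under both treatments. The median of the members' mean levels was 0.128, 2.39 and 24.3 RPKM with PBZ at 12, 24 and 36 HAI, and 0.0896, 3.65 and 26.4 RPKM in controls. In the 12 h controls 184 members averaged under 1 RPKM, 105 under 0.1 RPKM and 29 were listed at 0 in every library. The exceptions to a near-silent start were few, since 16 members averaged at least 1 RPKM in the 12 h controls and 2 averaged at least 5 RPKM, Glyma.07G265500 and Glyma.17G140300. In the 12 h PBZ libraries 88 members averaged under 0.1 RPKM and 19 were listed at 0 in all 3. The 12 HAI means were higher with PBZ for 120 members and lower for 65, and the libraries did not overlap for 15 and 13 of them. No test was made at 12 HAI, because the 12 h controls chose the members. A choice for low 12 h control values favours higher PBZ means. These counts have no share over all genes beside them and are not read as an effect of PBZ.

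The members' part of all transcripts grew with time. They held 0.00932% to 0.0197% of the summed RPKM in the PBZ libraries of 12 HAI and 0.0103% to 0.0167% in the control libraries of 12 HAI. At 24 HAI they held 0.158%, 0.291% and 0.298% with PBZ, against 0.422%, 0.459% and 0.422% in controls. At 36 HAI the shares were 1.87%, 1.86% and 1.81% with PBZ, against 2.04%, 2.104% and 1.66% in controls. The PBZ and control shares therefore lay apart at 24 HAI, with every PBZ library below every control library, and overlapped at 36 HAI. All the 36 HAI libraries took part in choosing the members, so their overlap is a property of the rule.

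**Figure D1:**
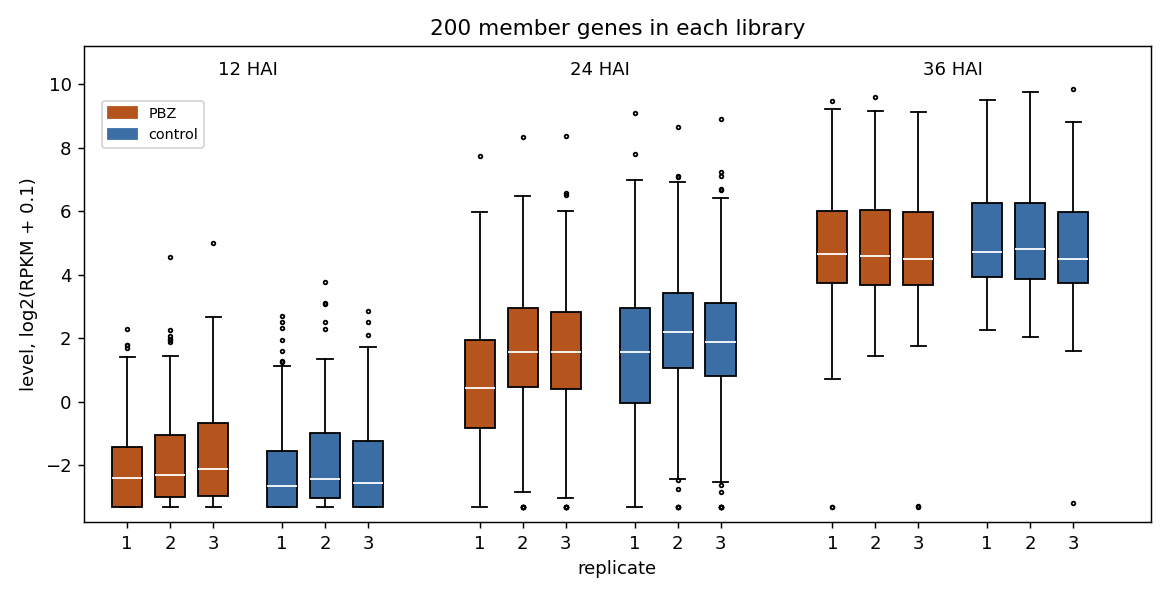
Levels of the 200 member genes in each of the 18 libraries, as log2(RPKM + 0.1), with PBZ (orange) left of control (blue) at each time in hours after imbibition (HAI). Boxes span the quartiles with the median in white, whiskers reach 1.5 times the box height and points lie beyond. The medians at 24 HAI run from 1.24 to 2.87 RPKM with PBZ and from 2.85 to 4.47 RPKM in controls, and PBZ replicate 1 is the lowest library of that time.

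The members lay on all 20 chromosomes, from 6 to 18 on each, and 14 of them formed 7 pairs of near neighbours by identifier. Chromosome 8 held 18 members and chromosome 7 held 17. No run of 3 or more neighbours was found. The annotation used was the text of the study's own gene tables, which held 40 of the 200 members and a description for 34. Those tables cover mainly genes that the study listed as responding to PBZ, with part of chromosome 1, so the described members are not a sample of the 200 and their functions say nothing about the rest. The other 166 members are given by identifier (gene model of the Wm82.a2.v1 assembly) only.

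The strongest member by the rule was Glyma.03G028000, annotated as an arginase, the enzyme that splits arginine into ornithine and urea and so releases stored nitrogen in seedlings. It had 0.075, 0 and 0.141 RPKM in PBZ and 0, 0.0181 and 0.149 RPKM in control axes at 12 HAI. At 24 HAI it had 0.676, 2.60 and 0.732 RPKM with PBZ, against 6.40, 2.8005 and 2.44 RPKM in controls. At 36 HAI it reached 98.5, 129 and 117 RPKM with PBZ, against 209, 201.8 and 119 RPKM in controls. Nearly all of its accumulation thus fell in the interval after 24 HAI under both treatments.

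Next came Glyma.15G271000, annotated as beta glucosidase 17, an enzyme class that cleaves glucose from glucosides. Its 24 HAI levels were 13.3, 38.8 and 49.7 RPKM with PBZ, against 83.4, 120 and 102 RPKM in controls. By 36 HAI it was the most abundant member in controls, with 541, 564 and 518 RPKM in PBZ axes and 725, 798 and 450 RPKM in control axes. Its neighbour Glyma.15G270900, with the same annotation, kept a lower level throughout, at 69.0, 64.8 and 69.8 RPKM with PBZ and 77.1, 82.6 and 57.7 RPKM in controls at 36 HAI. RPKM is a level per length, so these levels can be set side by side, although reads that match both neighbours were left out by the unique-read alignment and the exact split between them is uncertain.

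The next 8 members by the rule were Glyma.02G156800, annotated with a legume lectin domain, Glyma.08G108100, Glyma.08G200000, Glyma.02G083600, Glyma.04G105900, annotated as a lipoxygenase, Glyma.15G238600, Glyma.18G190000 and Glyma.18G014000. Glyma.02G156800 had 51.0, 98.8 and 68.6 RPKM with PBZ and 130, 191 and 82.4 RPKM in controls at 36 HAI. Glyma.08G200000 had 259.5, 249.99 and 223 RPKM with PBZ and 284, 288 and 234 RPKM in controls at 36 HAI. At 12 HAI this gene had at most 0.472 RPKM with PBZ and 0.474 RPKM in controls. Glyma.08G108100 was listed at 0 in the 12 h controls and at 0, 3.93 and 11.4 RPKM in the 24 h controls, so its replicates disagreed at the time it came up.

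The 5 most abundant members in the 36 h controls were Glyma.15G271000, Glyma.07G265500, Glyma.05G128000, Glyma.17G140300 and Glyma.05G057500. Glyma.07G265500 was early, with 211, 323 and 333 RPKM in PBZ axes and 549.6, 397 and 479.7 RPKM in control axes at 24 HAI, and 706, 779 and 562 RPKM against 653, 863 and 441 RPKM at 36 HAI. Glyma.05G128000 was late, with 13.2, 19.8 and 12.8 RPKM with PBZ and 2.37, 17.9 and 5.78 RPKM in controls at 24 HAI, then 585, 413 and 545 RPKM against 604, 406 and 919 RPKM at 36 HAI. Glyma.17G140300 had 589, 511 and 436 RPKM in PBZ axes and 519, 424 and 265 RPKM in control axes at 36 HAI. Glyma.05G057500, annotated as a lipid-transfer-type seed storage 2S family protein, had 503, 332 and 428 RPKM with PBZ and 487, 250.3 and 300.2 RPKM in controls at 36 HAI.

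How much of the rise was complete by 24 HAI differed widely between members. In controls the 24 HAI mean was a median 14.4% of the 36 HAI mean, with quartiles of 6.17% and 23.3% and a range of 0% to 84.6%. With PBZ it was a median 9.75% of the 36 HAI PBZ mean, with quartiles of 5.14% and 15.9% and a range of 0% to 78.1%. Under 10% was reached by 102 members with PBZ and by 70 in controls, and at least 50% by 2 with PBZ and by 8 in controls. The PBZ means of 24 HAI include replicate 1, with a median over members of 1.24 RPKM, where replicates 2 and 3 had 2.87 RPKM each. The PBZ shares were not computed by single library. On the log2(RPKM + 0.1) scale the median difference between 24 and 12 HAI was 3.21 with PBZ and 4.26 in controls, and that between 36 and 24 HAI was 3.29 with PBZ and 2.76 in controls. The median member had covered 60.8% of its log2 rise by 24 HAI in controls, or 54.2%, 62.9% and 59.8% by single library. That share was 45.1% with 1 RPKM added in place of 0.1.

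**Figure D2:**
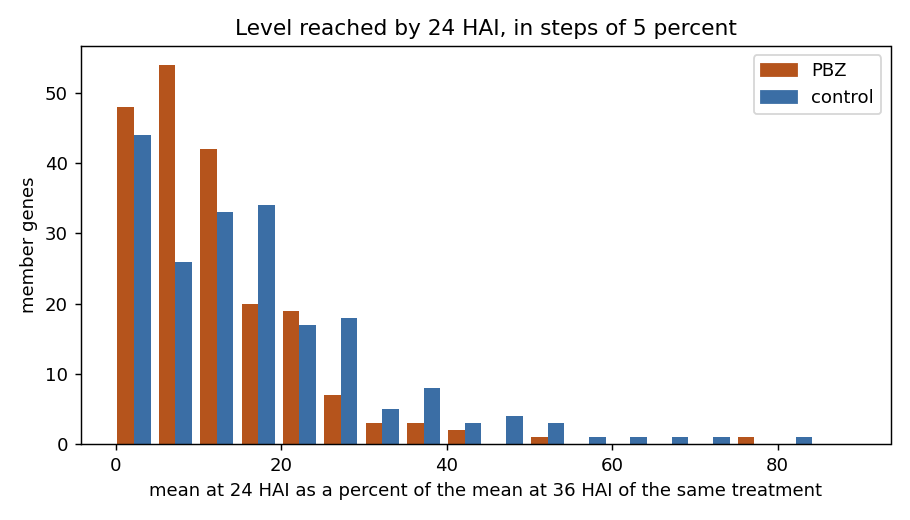
Number of members by the mean at 24 HAI as a percent of the mean at 36 HAI of the same treatment, in steps of 5 percent, with PBZ in orange left of control in blue. The PBZ values gather further left, with a median of 9.75% against 14.4% in controls. The PBZ means of 24 HAI include replicate 1, the lowest library of that time.

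Early and late members were named after their values were seen. The 8 that stood at 50% or more of the 36 HAI level in the 24 h controls were Glyma.13G257400 (84.6%), Glyma.07G265500 (72.9%), Glyma.08G344900 (68.4%), Glyma.09G269200 (64.2%), Glyma.07G193600 (56.5%), Glyma.06G286200 (54.3%), Glyma.04G245900 (53.1%) and Glyma.17G176700 (52.0%). With PBZ the first 3 of these stood at 37.3%, 42.3% and 29.7% of their 36 HAI PBZ level. Only Glyma.04G245900, at 52.7%, and Glyma.10G057200, at 78.1%, passed 50% with PBZ.

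At the other end, 32 members averaged under 1 RPKM in both 24 HAI groups and 5 averaged under 0.1 RPKM in both. These 5 were Glyma.06G302600, Glyma.15G169100, Glyma.03G261800, Glyma.19G076600 and Glyma.11G221000. Glyma.15G169100 was listed at 0 in all 6 libraries of 24 HAI and had 13.03, 14.5 and 18.9 RPKM with PBZ and 15.3, 13.7 and 18.9 RPKM in controls at 36 HAI. Glyma.06G302600 had at most 0.0533 RPKM with PBZ and 0.118 RPKM in controls at 24 HAI, and 38.3, 29.5 and 29.1 RPKM against 33.9, 19.1 and 35.0 RPKM at 36 HAI. Such genes came up within the last interval in controls. The overlap of their levels between treatments at 36 HAI was a condition of the rule and is not a result.

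The rise with PBZ was tested in libraries that the rule did not use, by comparing PBZ axes of 24 HAI with PBZ axes of 12 HAI. A gene was called at an adjusted p of 0.05 or less and a log2 change of at least 1, with limma and Benjamini-Hochberg adjustment over all tested genes. Of the 200 members, 152 averaged at least 1 RPKM in either group and entered the fit, 132 of them only through the 24 HAI libraries. Of those tested, 148 rose, set beside 17.1% of all tested genes called higher, and 0 fell, set beside 9.51% called lower. At an unadjusted p of 0.05 or less, 151 members differed, as did 19018 of the 31495 genes. The single member with a negative estimate was Glyma.12G094600. Since a low gene could enter only by being high at 24 HAI, the count without any filter is the fairer one. Of 198 members fitted then, 172 rose and 1 fell (Glyma.06G302600, named after its values were seen), set beside 15.6% of all genes called higher and 7.84% called lower. The median log2 change was 3.62 for the members tested and 0.07 for all genes tested, or 3.29 and 0.09 without the filter. Without the filter, all PBZ libraries of 24 HAI lay above all of 12 HAI for 174 of the 198 members, where 30.8% of all genes did, and below for 1, where 22.4% did.

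The largest rise with PBZ was that of Glyma.10G057200, which had 21.6, 29.1 and 31.5 RPKM in PBZ axes of 24 HAI and was listed at 0 in all 3 PBZ libraries of 12 HAI (log2 change 8.09, SE 0.22, adjusted p = 3.24e-05, limma, n = 3 each). The log2 change against a group listed at 0 depends on the 0.1 RPKM added and is not a fold. Glyma.08G200000 had 22.7, 45.3 and 41.6 RPKM at 24 HAI against 0.150, 0.472 and 0.161 RPKM at 12 HAI in PBZ axes (log2 change 6.71, SE 0.39). Glyma.13G293500, Glyma.06G286200 and Glyma.08G153400 followed with log2 changes of 6.61, 6.59 and 6.55. Of these 5 genes only Glyma.10G057200 had a higher mean with PBZ than in controls at 24 HAI.

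Among the smallest changes, Glyma.07G112000 (log2 change 1.52, adjusted p = 0.0101, limma) and Glyma.11G030300 (1.61, adjusted p = 0.0183, limma), a lipid-transfer-type protein, still passed. Glyma.13G357300 (1.43, adjusted p = 0.0576, limma) and Glyma.16G016100 (1.66, adjusted p = 0.0675, limma) did not. Glyma.16G013000, named after its values were seen, had a larger change but a wide error and did not pass either (2.74, SE 1.17, adjusted p = 0.0806, limma). At 36 HAI Glyma.13G357300 averaged 30.3 RPKM with PBZ and 33.2 RPKM in controls, and Glyma.16G016100 averaged 34.3 RPKM with PBZ and 35.8 RPKM in controls. Glyma.12G094600 stood apart for another reason, since its replicates ranged over several orders of magnitude. It had 0.000112, 23.4 and 32.0 RPKM with PBZ at 12 HAI and 48.4, 43.2 and 0.00944 RPKM in controls at 36 HAI. In 5 of the 6 groups it had a library under 0.1 RPKM beside one over 5 RPKM, a pattern seen in only 1 other member, Glyma.08G108100, and there in 1 group.

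At 24 HAI, most members stood lower with PBZ than in controls. The mean was lower with PBZ for 169 of the 200 and higher for 29, and the median ratio of the means was 0.638. Over all 31148 tested genes, which averaged at least 1 RPKM in either group, the mean was lower with PBZ for 61.4%. The 200 were counted without that filter. Among the 168 members that averaged at least 1 RPKM in either group, 148 did so in both, 16 only in controls and 4 only with PBZ. The median log2 change of the tested members was -0.67, where that of all tested genes was -0.07. Without any filter, 70 of 198 members had every PBZ library below every control library, where 18.4% of all genes did, and 4 had every PBZ library above, where 8.89% did. In that fit, 162 of 198 members had a negative log2 change, with a median of -0.64 against -0.08 for all genes.

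This shift rested in part on 1 library. PBZ replicate 1 was the lowest of the 3 PBZ libraries for 175 members, and its median over members was 1.24 RPKM, where PBZ replicates 2 and 3 had 2.87 RPKM each. Without PBZ replicate 1 the mean was lower with PBZ for 153 members, with a median ratio of 0.787, and the median log2 change of tested members was -0.27. Leaving out any other single library of 24 HAI gave 149 to 174 members with a lower mean and median ratios of 0.565 to 0.702. With the organellar copies left out and the rest rescaled, 167 members had a lower mean and the ratio was 0.675. The organellar share was higher in all 3 PBZ libraries of 24 HAI, as given above. In the fit without those copies the 3 members called lower below had log2 changes of -1.44 (Glyma.08G344900), -1.25 (Glyma.13G257400) and -1.16 (Glyma.10G142200) and were called again, among 4 calls in all, 3 lower and 1 higher.

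Few single members passed the test of PBZ against control at 24 HAI. With limma and Benjamini-Hochberg adjustment, 3 members were lower with PBZ and 0 higher, set beside 0.202% of all tested genes called lower and 0.716% called higher. At an unadjusted p of 0.05 or less, 64 of the 168 tested members differed, as did 8259 of the 31148 genes. Without the filter 1 member was called lower, where 0.145% of all genes were. The 3 calls also depended on single libraries. There were 0 calls among members without PBZ replicate 2 and without control replicate 3, 1 lower without control replicate 1, 1 higher and 0 lower without control replicate 2, and 5 lower without PBZ replicate 3. Without PBZ replicate 1 there were 3, of which 1 was among the original 3. In a fit of all 18 libraries there were 0. Calls over all genes changed too, from 63 lower and 223 higher in the main fit to 13 and 8 there. Lower and higher calls over all genes were 21 and 105 without PBZ replicate 2, and 9 and 150 without control replicate 3. They were 6 and 129 without control replicate 1, and 10 and 143 without control replicate 2. They were 73 and 225 without PBZ replicate 3, and 32 and 150 without PBZ replicate 1.

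The 3 members called lower were Glyma.08G344900, Glyma.13G257400 and Glyma.10G142200. Glyma.08G344900 had 1.88, 1.57 and 1.93 RPKM with PBZ, against 4.07, 6.50 and 5.54 RPKM in controls (log2 change -1.51, SE 0.19, adjusted p = 0.0171, limma, n = 3 each). It was listed at 0 in all 6 libraries of 12 HAI and had 6.43, 4.15 and 7.53 RPKM with PBZ and 11.8, 3.97 and 7.80 RPKM in controls at 36 HAI. Glyma.13G257400 had 12.8, 19.3 and 23.0 RPKM with PBZ, against 58.0, 34.2 and 45.8 RPKM in controls at 24 HAI (log2 change -1.33, SE 0.26, adjusted p = 0.0458, limma). Its control level was nearly complete at that time, since the 36 HAI libraries had 54.0, 49.5 and 44.5 RPKM with PBZ and 57.7, 69.3 and 36.1 RPKM in controls.

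Glyma.10G142200 is annotated as a MYB transcription factor, with the Arabidopsis factor MYB61 as its closest match, which in Arabidopsis has been linked to vascular tissue, stomata and seed coat mucilage. It had 1.77, 2.34 and 2.68 RPKM with PBZ, against 6.92, 5.05 and 4.45 RPKM in controls at 24 HAI (log2 change -1.23, SE 0.21, adjusted p = 0.0360, limma). At 36 HAI, where overlap was a condition of the rule, it had 16.0, 15.5 and 15.2 RPKM with PBZ and 16.0, 16.6 and 13.5 RPKM in controls. All 3 genes rose between 12 and 24 HAI with PBZ as well, with log2 changes of 4.24, 6.54 and 3.38 in the order given above.

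The 4 members with every PBZ library above every control library at 24 HAI were Glyma.10G057200, Glyma.02G083600, Glyma.07G139400 and Glyma.16G165800, named after their values were seen. Glyma.10G057200 had 21.6, 29.1 and 31.5 RPKM with PBZ, against 6.67, 16.0 and 5.81 RPKM in controls, and did not pass the test (log2 change 1.65, SE 0.37, adjusted p = 0.0584, limma). Glyma.02G083600 had 21.1, 24.4 and 19.9 RPKM against 19.3, 18.2 and 9.19 RPKM (log2 change 0.55, adjusted p = 0.244, limma). Glyma.07G139400 had 2.44, 3.85 and 4.46 RPKM against 1.90, 2.02 and 2.23 RPKM (log2 change 0.74, adjusted p = 0.106, limma). Glyma.16G165800 had at most 0.284 RPKM in either group and was not tested.

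**Figure D3:**
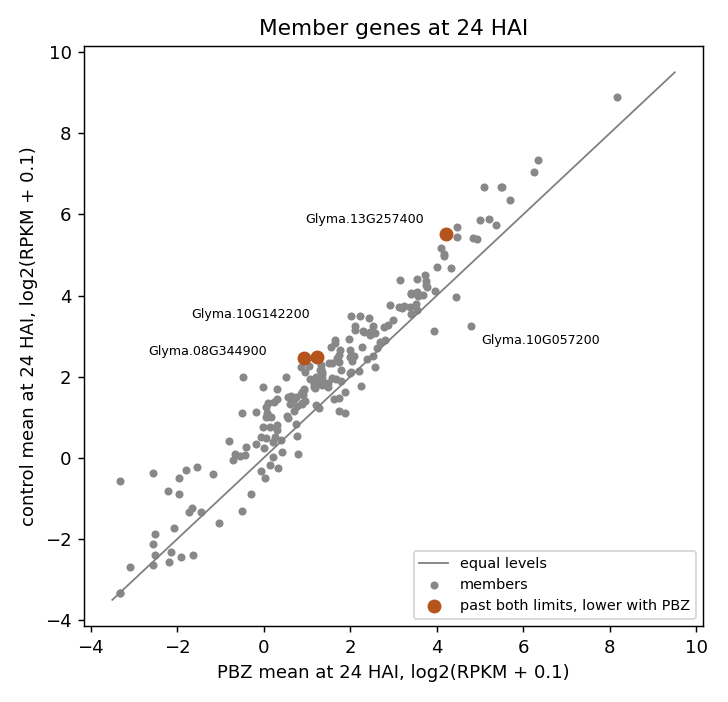
Mean level of each member at 24 HAI with PBZ (horizontal) and in controls (vertical), both as log2(RPKM + 0.1), with the line of equal levels. Most points lie above the line (169 of 200 means lower with PBZ), and the 3 members past both limits are in orange. Glyma.10G057200, below the line, had a log2 change of 1.65.

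The other genes that met the same conditions but not the top 200 gave a point of comparison. Of these 6974, 6918 were tested at 24 HAI, with 22 called lower and 6 higher, a median log2 change of -0.17 and 34.0% with every PBZ library below every control library. Among the tested members that last share was 38.1%. A negative log2 change was found for 75.1% of the 6918 and for 85.1% of the tested members. For PBZ at 24 against 12 HAI, 6871 were tested, 43.0% rose and the median log2 change was 0.88. The members were taken for the largest rise in controls, so a larger change than in this remainder between PBZ time points was not tested as a difference.

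Several described members act on cell walls or on sugars. The study's list of 44 cell wall genes, drawn by its authors from these same libraries, held 7 members, the beta-glucosidases Glyma.15G270900 and Glyma.15G271000, the beta-xylosidase Glyma.15G143700, the arabinofuranosidase Glyma.19G124600, the acid beta-fructofuranosidase Glyma.17G138500, the wall-associated kinase Glyma.13G035900 and the hydroxyproline-rich glycoprotein Glyma.13G056500. Of the whole list, 28 genes were tested between PBZ time points, of which 20 rose and 2 fell, where 17.1% of all tested genes rose and 9.51% fell. The 6 members among them averaged at least 1 RPKM at 24 HAI and not at 12 HAI, so they entered the fit only by being high there. At 24 HAI, 31 of the list were tested, with 1 higher and 3 lower with PBZ, where 0.716% of all tested genes were higher and 0.202% lower, and 0 of the 7 members were called. The study had called all 44 genes of the list differentially expressed with PBZ, by another test (cuffdiff) and at any of the 3 times. The 0 calls among members at 24 HAI here therefore do not show that these genes lack a response. The list was chosen on these libraries, so its direction is not independent evidence.

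The 2 wall glycosidases that trim side chains or xylan had modest levels. Glyma.15G143700 had 0.920, 2.85 and 2.61 RPKM with PBZ and 6.26, 5.43 and 4.57 RPKM in controls at 24 HAI, and 32.0, 18.4 and 23.2 RPKM against 33.2, 14.5 and 26.1 RPKM at 36 HAI. Glyma.19G124600 had 0.565, 1.67 and 0.981 RPKM with PBZ and 3.73, 2.13 and 1.69 RPKM in controls at 24 HAI. Both groups of libraries were apart for these genes at 24 HAI, but neither passed the adjusted test (log2 change -1.44, adjusted p = 0.0844, and -1.19, adjusted p = 0.138, limma). Glyma.01G204800, annotated as expansin-like B1, a relative of the wall-loosening expansins, stayed low, at 4.24, 6.27 and 7.98 RPKM with PBZ and 7.42, 14.7 and 8.25 RPKM in controls at 36 HAI.

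Glyma.17G138500, an acid invertase that splits sucrose into glucose and fructose, was the most abundant of the sugar enzymes after Glyma.15G271000. It had 17.6, 24.96 and 23.0 RPKM with PBZ, against 76.5, 40.2 and 38.8 RPKM in controls at 24 HAI (log2 change -1.18, SE 0.27, adjusted p = 0.0613, limma). At 36 HAI it had 39.1, 181 and 46.5 RPKM with PBZ and 117, 329 and 74.1 RPKM in controls, with replicate 2 far above the others under both treatments.

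Replicate 2 at 36 HAI was at least 2 times both other replicates under both treatments in 6 members, or 3.0%. Of the 20471 genes with a 36 h control mean of at least 5 RPKM, 45 (0.22%) had this pattern. The 6 members were Glyma.17G138500, Glyma.16G021000, Glyma.01G198100, Glyma.19G105100, Glyma.14G038500 and Glyma.03G261800. Glyma.19G105100 had 15.2, 48.9 and 15.0 RPKM with PBZ and 17.9, 49.95 and 16.3 RPKM in controls. The pattern was noticed in values that took part in choosing the members, it was not tested, and whether a number marks a shared sowing or day is not given in the labels.

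Lipoxygenases, which oxidise polyunsaturated fatty acids at the start of oxylipin synthesis, were present with 3 members, Glyma.04G105900, Glyma.07G006900 and Glyma.13G347800, all annotated as linoleate 9S-lipoxygenases. Glyma.13G347800 was the most abundant, at 16.2, 59.6 and 58.4 RPKM with PBZ and 84.8, 136 and 85.3 RPKM in controls at 24 HAI, and 272, 382 and 270.1 RPKM against 318, 495 and 223 RPKM at 36 HAI. Glyma.04G105900 was listed at 0 in the 12 h controls and had 0, 1.08 and 0.781 RPKM with PBZ, against 4.14, 4.62 and 2.90 RPKM in controls at 24 HAI (log2 change -3.06, SE 0.88, adjusted p = 0.0930, limma). In all 3 genes every PBZ library lay below every control library at 24 HAI, and none passed the adjusted test at 24 HAI. Their overlap at 36 HAI was a condition of the rule.

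UDP-glycosyltransferases, which attach sugars to hormones and specialised metabolites, were the described family with most members. Glyma.20G057500 had 0.994, 4.58 and 3.00 RPKM with PBZ and 4.58, 9.21 and 5.94 RPKM in controls at 24 HAI, and 27.2, 58.1 and 39.9 RPKM against 50.2, 61.7 and 32.3 RPKM at 36 HAI. Glyma.14G175800 had 2.24, 5.21 and 5.12 RPKM with PBZ and 7.08, 10.9 and 10.2 RPKM in controls at 24 HAI (log2 change -1.22, adjusted p = 0.0859, limma). Glyma.15G054500 had 1.67, 3.94 and 3.54 RPKM against 10.05, 5.62 and 6.33 RPKM (log2 change -1.28, adjusted p = 0.0846, limma). The fourth, Glyma.02G105000, had at most 0.315 RPKM in every library of 24 HAI and had 1.54, 6.31 and 3.27 RPKM with PBZ and 9.02, 8.74 and 6.26 RPKM in controls at 36 HAI. Among the 25 family members with a description in the study's tables, 20 were tested at 24 HAI, with 1 higher and 2 lower with PBZ, and none of the calls was a member. Between the PBZ time points 20 were tested, 6 rose and 4 fell, and the 3 members among the 6 had passed the filter only through 24 HAI. The shares over all tested genes are those given for the cell wall list. The described genes come mainly from those the study listed as responding to PBZ, so these counts are not independent evidence either.

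Transcription factors with a description were 3, the MYB factor Glyma.10G142200, the homeodomain-leucine zipper factor Glyma.16G021000 and the bHLH factor Glyma.01G198100. Glyma.16G021000, whose Arabidopsis relatives respond to abscisic acid and water deficit, had 0.0763, 0.0919 and 0.309 RPKM with PBZ and 0.305, 0.490 and 0.535 RPKM in controls at 24 HAI. At 36 HAI it had 3.03, 6.80 and 3.254 RPKM with PBZ and 5.53, 26.6 and 5.42 RPKM in controls, one of 4 members whose 36 h PBZ mean was under 50% of the control mean. Glyma.01G198100 had 0.822, 2.29 and 2.30 RPKM with PBZ and 2.71, 4.10 and 2.59 RPKM in controls at 24 HAI, and 8.22, 20.9 and 8.66 RPKM against 10.7, 31.7 and 7.03 RPKM at 36 HAI. Of 120 described transcription factors in all, 99 were tested at 24 HAI, with 2 higher and 8 lower with PBZ, and 85 between the PBZ time points, with 23 that rose and 7 that fell. Over all tested genes 0.716% were higher and 0.202% lower at 24 HAI, and 17.1% rose and 9.51% fell between the PBZ time points. The described factors come mainly from genes that the study listed as responding to PBZ in these libraries. Their counts are therefore not independent evidence. Of the study's 85 hormone genes none was a member (0 of 85).

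Phenolic and protective metabolism was represented by single genes. Glyma.01G020900, annotated as a cinnamyl-alcohol dehydrogenase, an enzyme class that makes lignin precursors, had 6.74, 20.8 and 18.8 RPKM with PBZ and 9.82, 21.3 and 20.7 RPKM in controls at 24 HAI, and 123, 115 and 117 RPKM against 118, 133 and 110.4 RPKM at 36 HAI. Glyma.13G183000, a catechol oxidase, which oxidises phenols to quinones, had 1.87, 4.19 and 7.73 RPKM with PBZ and 7.81, 13.1 and 12.4 RPKM in controls at 24 HAI (log2 change -1.43, adjusted p = 0.121, limma). At 36 HAI the acyltransferase Glyma.05G152500 averaged 10.45 RPKM with PBZ and 13.1 RPKM in controls, and the methyltransferase Glyma.01G187700 averaged 12.1 RPKM with PBZ and 13.7 RPKM in controls. Of the glutathione S-transferases, which conjugate glutathione to reactive compounds, Glyma.01G040200 had 23.9, 24.9 and 26.3 RPKM with PBZ and 25.4, 38.4 and 29.0 RPKM in controls at 36 HAI, and Glyma.11G212900 had 1.69, 11.8 and 4.26 RPKM against 12.9, 13.8 and 7.83 RPKM. At 24 HAI the cinnamyl-alcohol dehydrogenase overlapped between treatments, while the catechol oxidase was apart. Overlap at 36 HAI was a condition of the rule for every member.

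Glyma.01G010200 is annotated as phosphoribulokinase, which regenerates the carbon dioxide acceptor of the Calvin cycle. It had 0.941, 2.72 and 3.23 RPKM with PBZ and 1.79, 4.93 and 3.99 RPKM in controls at 24 HAI, and 31.0, 30.2 and 30.2 RPKM against 31.3, 31.6 and 25.3 RPKM at 36 HAI. It rose between 12 and 24 HAI with PBZ (log2 change 3.53, SE 0.55, adjusted p = 0.00160, limma). Its groups overlapped at 24 HAI, and at 36 HAI by the rule. Lipid-related members included Glyma.01G152900, a long-chain fatty alcohol dehydrogenase, Glyma.02G239400, an acyl-activating enzyme, and the lipid-transfer-type genes Glyma.05G057500 and Glyma.11G030300. Glyma.11G030300 had 0.591, 1.5002 and 1.32 RPKM with PBZ and 2.78, 3.84 and 2.74 RPKM in controls at 24 HAI (log2 change -1.45, adjusted p = 0.0629, limma), then 55.4, 37.2 and 41.1 RPKM against 40.4, 40.0 and 34.7 RPKM at 36 HAI. Every described member had a lower mean with PBZ at 24 HAI (34 of 34), with a median ratio of 0.426, while the members without a description had a lower mean in 135 of 166, with a median ratio of 0.681. The study's tables cover mainly genes that it listed as responding to PBZ in these same libraries. A shared direction among the described members is therefore not independent evidence. The described members are not a sample of the 200, and the 2 counts were not compared by a test.

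**Figure D4:**
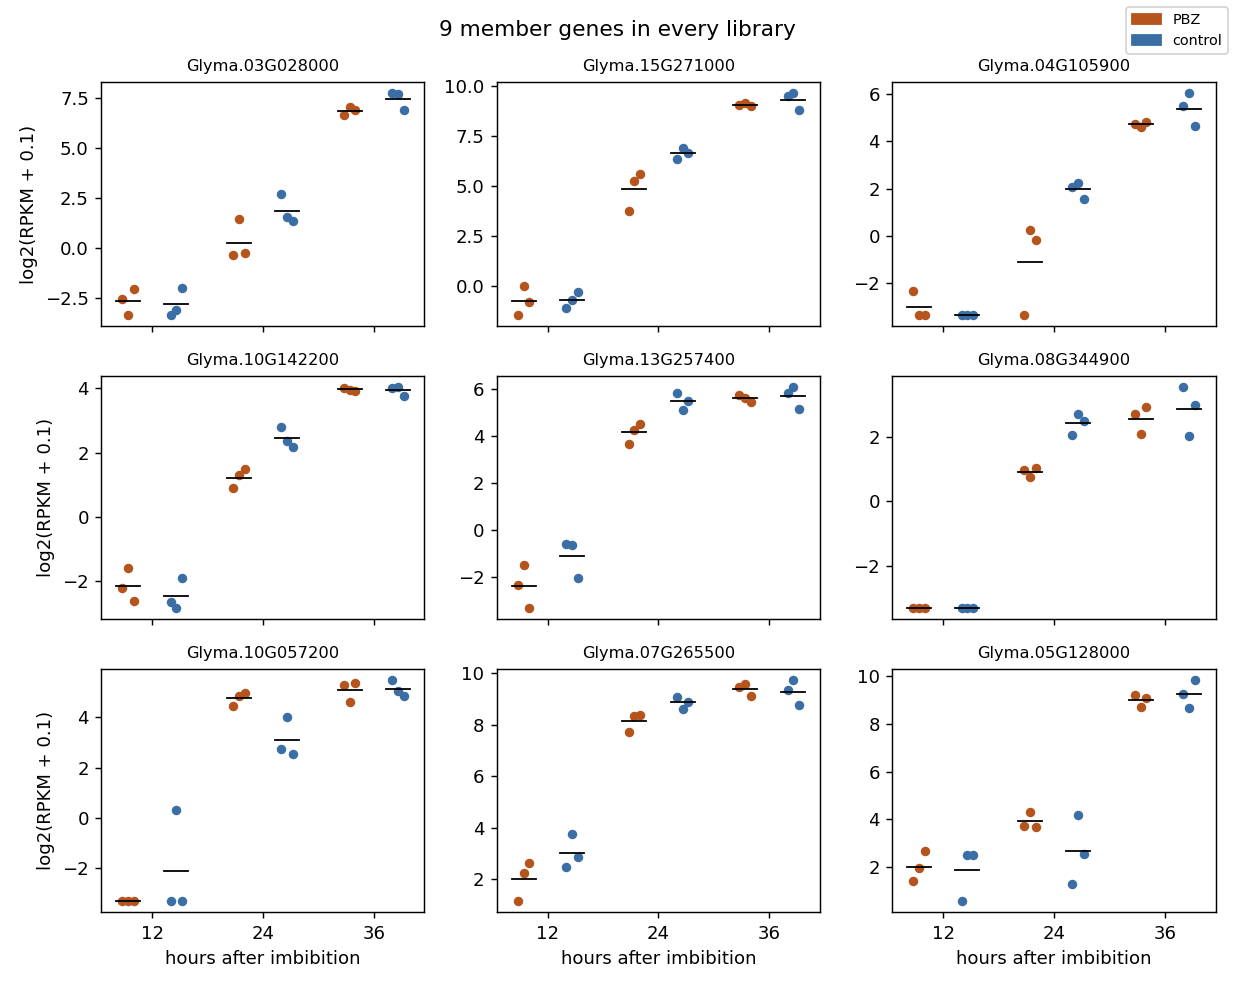
Levels of 9 members in every library, as log2(RPKM + 0.1), with PBZ (orange) left of control (blue) at each time after imbibition. Points are replicates 1 to 3 from left to right and lines are means of the plotted values. The 3 members called lower with PBZ at 24 HAI form the middle row, and of the 9 panels only that of Glyma.10G057200 has every PBZ library of 24 HAI above every control library of that time.

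At 36 HAI the levels were close by construction. The ratio of the PBZ to the control mean had a median of 0.923, quartiles of 0.831 and 1.01 and a range of 0.217 to 1.51, and 187 members were within 1.5-fold. The mean was higher with PBZ for 54 members and lower for 146. The 36 h PBZ libraries took part in the rule, so the next counts follow in part from it, and no share over all genes is set beside them. All PBZ libraries of 36 HAI lay above all PBZ libraries of 24 HAI for 197 members and above all of 12 HAI for 198. The 2 exceptions at 12 HAI, named after their values were seen, were Glyma.12G094600 and Glyma.19G076600. Glyma.19G076600 was listed at 0 in every library of 12 and 24 HAI and had 0, 4.91 and 0 RPKM with PBZ and 7.81, 11.9 and 2.91 RPKM in controls at 36 HAI.

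Just inside the limit of the list were Glyma.17G147600 and Glyma.14G218200, and just outside it Glyma.10G111700 and Glyma.18G184600. Glyma.14G218200, the last member, had 8.07, 8.77 and 7.96 RPKM with PBZ and 8.35, 10.5 and 8.03 RPKM in controls at 36 HAI, with a log2 ratio of the 36 h to the 12 h control means of 6.13. The first gene left out, Glyma.10G111700, had 10.6, 10.44 and 9.24 RPKM against 10.01, 6.87 and 9.10 RPKM and a log2 ratio of 6.11. The log2 ratios of the members had a median of 6.75 and reached 10.15 in Glyma.03G028000. The list's edge thus falls within a continuous run of values.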

How the data were processed

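PolyA RNA of 18 embryonic axis samples was sequenced single-end. Per the labels and the study's methods, the authors checked reads with FastQC, aligned them with Novoalign 3.06.05 to the Wm82.a2.v1 assembly, keeping unique alignments, and deposited RPKM values computed with Cufflinks 2.1.1 with bias correction. RPKM keeps no read counts, so no count test or counting interval was possible, and depth was estimated only relative to 1 library. All 18 columns were mapped to samples by name (0 left over).

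Values were used as log2(RPKM + 0.1) in limma 3.58.1 (R 4.3.3) with a mean-dependent variance, 3 libraries a group and no covariates, over all genes with a mean of at least 1 RPKM in either group. Limits were a Benjamini-Hochberg adjusted p of 0.05 and a log2 change of 1. The log2 change understates changes of low genes. Tested on simulated data holding 100 true log2 changes of 1.5 and 100 of 3, the fit recovered 92 and 97 for PBZ against control at 24 HAI, with 5 other calls among 31178 genes, and 74 and 98 for PBZ at 24 against 12 HAI, with 3 other calls among 29233. The changed genes averaged at least 2 RPKM in the comparison group, and the noise was drawn separately for each gene and library. In the PBZ libraries of 12 HAI 180 members averaged under 1 RPKM. At 24 HAI PBZ replicate 1 was low for most members together, which the simulation did not hold. The recovery rates therefore do not give the power for the members. Only these 2 contrasts were tested, since the 12 h controls and both 36 h groups chose the members. The members and lists were chosen with earlier results of these data known. Named members were the 10 largest by the rule, the 5 most abundant, those past both limits at 24 HAI without overlap, the 5 largest and 5 smallest changes between the PBZ time points, up to 3 of each described family with at least 3 members and the genes at the list's edge. Members with a description in the study's tables are named in addition, and others are said to have been chosen after their values were seen. Alternatives were other pseudocounts, filters, scalings, fits and single libraries left out. The study's table columns with its own fold changes and p-values were not used. No identifier matched the RefSeq gene table (0 matches), so no coordinates or sequences are given. Python 3.11.15, numpy 2.4.6, pandas 2.3.3 and matplotlib 3.10.9 were used.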

Additional observations from a re-analysis of the deposited data

How the results depend on the processing

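The count of members past both limits for PBZ against control at 24 HAI was 3. It became 1 with no filter on low values, 5 with a filter at a mean of 5 RPKM, 0 with all 18 libraries in one fit and 1 with limma without a mean-dependent variance, and ranged from 0 to 5 when each library was left out in turn. The cause was not tested. With the replicate number as a block it was 16 (15 lower and 1 higher), of which 2 were among the original 3. Over all 31148 genes the block gave 97 lower and 272 higher. Same-numbered PBZ and control libraries of 24 HAI had correlated deviations of 0.232, 0.220 and 0.061 for replicates 1, 2 and 3, so the numbers are not treated as pairs. Every library there correlated best with its own number, a hint from the data and not from the design. None of the named genes called in either contrast changed direction under any alternative run. The count of rises between the PBZ time points, 148, became 57 with a filter at 5 RPKM, under which 58 members were tested, was 148 with the replicate block (deviations 0.172, -0.054 and -0.051), and ranged from 130 to 159 with each library left out, 1 of the 146 being lower (Glyma.12G094600) without PBZ replicate 1 of 12 HAI. With 1 RPKM added in place of 0.1, the rule kept 116 of the 200 members, and the median share of the log2 rise covered by 24 HAI in controls was 45.1%, where it was 60.8% with 0.1. Under the other 14 settings the rule kept 152 to 200 members. The alternatives for the count of lower means at 24 HAI were chosen after seeing the data. Precision is limited by 3 libraries a group and by the unknown depth at low RPKM.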
